A study of Mus musculus with 6 samples.

Results

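The Bcl2 family of apoptosis regulators was examined in mouse heart after doxorubicin, through 10 of its genes found by symbol in a deposited count table of 35618 genes. Of these, 3 encode proteins that keep cells alive (Bcl2, Bcl2l1 and Mcl1) and 7 encode proteins that promote death (Bax, Bak1, Bcl2l11, Bid, Bad, Bmf and Pmaip1). RNA was sequenced in 3 libraries from hearts with a myocardial knockout of the pore-forming pyroptosis gene Gsdmd (labelled GSDMD-CKO, here CKO). Another 3 libraries came from hearts with floxed Gsdmd alleles (labelled GSDMD-FLOX/FLOX, here floxed). Mice of both groups were 6 to 8 weeks old, received 20 mg/kg doxorubicin into the peritoneum and had heart tissue taken 3 days later, so that the drug is shared by all 6 libraries and no untreated heart was analysed here. The sources used here do not name the promoter or Cre line behind the knockout. The labels do not say that each library is a separate animal, so p-values rest on the spread among libraries, part of which may be technical.

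Bcl2 family proteins meet at the outer membrane of the mitochondrion. Bax and Bak open pores there that release cytochrome c and start the caspase cascade; Bcl2, Bcl-xL and Mcl1 hold them back; and the BH3-only proteins, which share a short helix with the rest of the family, bind and block the guardians or activate the effectors. Heart muscle depends on this balance, and doxorubicin, an anthracycline that damages DNA and mitochondria, is known to engage it through p53 and other routes. Much of the family's control lies in protein cleavage, phosphorylation and turnover, which transcript counts do not measure.

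The 6 libraries held 17279147 to 18875902 counted reads. Gsdmd measured 77.4, 137 and 111 CPM (counts scaled by normalised library size) in the CKO libraries 1, 2 and 3, against 6707, 8272 and 7861 CPM in the floxed libraries 1, 2 and 3, so the targeted gene divided the libraries as labelled. Its level in the floxed libraries was near that of the heart muscle gene Tnnt2, at 4755, 8658 and 7630 CPM there. The reason for so high a level was not tested. Ventricular muscle markers were present in all libraries. Their sum over 7 genes was 18969, 19281 and 9200 CPM in the CKO libraries 1, 2 and 3, against 14449, 21391 and 19232 CPM in the floxed libraries. CKO library 3 thus had the lowest sum and was unlike CKO library 2. It was not the lowest for Actc1 (2942 CPM, against 917 CPM in CKO library 1). Nor was it for Ryr2 (187 CPM, against 133 CPM in CKO library 2). The sum in CKO library 2 included 5703 CPM of Myh6, against 1442 to 1843 CPM in the other libraries. CKO library 1 stood apart from CKO libraries 2 and 3 in the share of counts from mitochondrially encoded genes, which was 18.1% in CKO library 1, 10.2% in CKO library 2 and 5.48% in CKO library 3, against 8.45%, 11.2% and 6.70% in the floxed libraries. Of 4 atrial muscle markers, Myl7, Sln and Myl4 also set it apart. They measured 75.1, 29.4 and 88.3 CPM in CKO library 1, and at most 5.18, 3.25 and 20.2 CPM in any other library. The remaining marker, Nppa, did not. It measured 343, 233 and 599 CPM in the CKO libraries 1, 2 and 3, against 1559, 1203 and 1312 CPM in the floxed libraries. Values without CKO library 1 are given below for some of the members. Among the other listed genes they are given mainly for those that then had an edgeR adjusted p under 0.05. In bulk tissue, fewer cells of a type and less RNA per cell cannot be told apart.

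Promoter windows from RefSeq (GRCm38.p6), running from 250 bases before to 50 bases after a start site, were found for 9 of the 10 members. Those of 4 members are shown because Bcl2 had the smallest p of the family in the genotype comparison, and because Bak1 and Bid against Bcl2l1 had opposite orders across the libraries. They lie at chr1:106714241-106714540 (Bcl2), chr2:152831679-152831978 (Bcl2l1), chr17:27028578-27028877 (Bak1) and chr6:120916775-120917074 (Bid), all on the minus strand. For Bcl2l1 the table holds 3 windows, of which the one nearest the 5′ end of the gene in GENCODE M21 is shown; the Bak1 start site lies 382 bases from that end. Capitals mark matches to GGGCGG, the GC box, on either strand.
Bcl2: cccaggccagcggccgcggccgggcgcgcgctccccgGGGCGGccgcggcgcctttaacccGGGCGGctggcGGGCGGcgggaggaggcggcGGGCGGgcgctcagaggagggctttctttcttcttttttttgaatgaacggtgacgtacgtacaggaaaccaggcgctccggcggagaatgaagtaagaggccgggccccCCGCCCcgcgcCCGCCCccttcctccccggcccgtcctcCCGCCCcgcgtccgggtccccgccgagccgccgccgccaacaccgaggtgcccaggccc
Bcl2l1: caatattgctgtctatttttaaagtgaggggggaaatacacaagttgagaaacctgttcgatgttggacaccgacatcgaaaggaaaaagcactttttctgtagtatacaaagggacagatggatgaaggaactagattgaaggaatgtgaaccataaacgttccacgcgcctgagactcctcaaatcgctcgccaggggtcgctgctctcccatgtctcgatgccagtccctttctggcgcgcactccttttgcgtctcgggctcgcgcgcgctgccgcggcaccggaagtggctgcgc
Bak1: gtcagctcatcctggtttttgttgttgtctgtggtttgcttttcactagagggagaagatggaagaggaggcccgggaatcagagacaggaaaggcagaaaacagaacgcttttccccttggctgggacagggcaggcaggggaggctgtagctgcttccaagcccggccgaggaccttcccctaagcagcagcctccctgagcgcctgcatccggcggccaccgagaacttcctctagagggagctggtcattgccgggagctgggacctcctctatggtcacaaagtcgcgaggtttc
Bid: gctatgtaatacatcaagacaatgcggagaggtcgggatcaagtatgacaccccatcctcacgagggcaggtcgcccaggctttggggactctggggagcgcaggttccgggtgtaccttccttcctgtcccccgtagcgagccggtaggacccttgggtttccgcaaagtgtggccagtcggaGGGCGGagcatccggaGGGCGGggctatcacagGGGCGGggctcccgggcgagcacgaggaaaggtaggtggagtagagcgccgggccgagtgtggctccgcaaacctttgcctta
The Bcl2 window held 7 GC boxes and the Bid window 3, while the Bcl2l1 and Bak1 windows held 0. At least 1 GC box was held by 35.7% of all promoter windows, and 7 of the 9 members with a window did. The other motifs searched, on both strands, were CCAAT (the CCAAT box), TTTNGCGC (an E2F core), TTCNNNGAA (the core bound by STAT factors) and GAANNTTC (a heat shock element core), which 37.4%, 1.38%, 8.3% and 7.86% of all windows held. They matched in 2, 0, 0 and 1 of the 9 members and in none of the 4 windows shown. Thus the pair that moved together, Bak1 and Bid, did not share a match to any of these 5 motifs, and a match or its absence in 1 window says nothing of binding.

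Levels within the family spanned a wide range on the per-length scale of the deposited FPKM (fragments scaled by gene length and library depth). Mcl1 was highest, at 126 ± 28.3 FPKM in CKO and 131 ± 11.4 FPKM in floxed hearts (SD, n = 3 libraries each), followed by Bax at 69.0 ± 8.17 FPKM in CKO and 77.7 ± 16.6 FPKM in floxed hearts. Bcl2l1 and Bak1 came next with ranges that overlapped each other in both groups, and then Bad at 14.6 ± 1.70 FPKM in CKO and 14.9 ± 1.80 FPKM in floxed hearts. Bcl2l11, Bid, Pmaip1 and Bmf averaged between 3.49 and 5.07 FPKM in CKO and between 3.95 and 4.96 FPKM in floxed hearts, and neighbours among them overlapped. Bcl2, the founding member of the family, had the lowest mean of the 10 in both groups, at 2.34 ± 0.905 FPKM in CKO and 1.58 ± 0.194 FPKM in floxed hearts. Its range overlapped those of Bmf, Bid and Pmaip1 in CKO and lay below all others in floxed hearts. The first 5 ranks were held by the same genes in the same order in both groups.

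**Figure D1:**
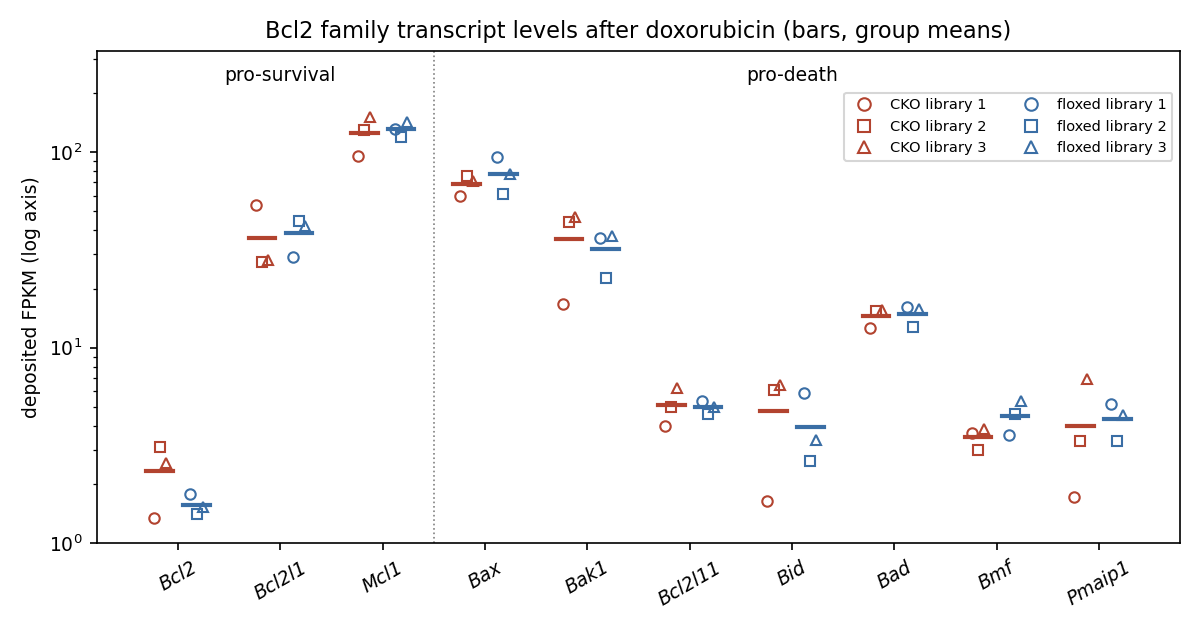
Deposited FPKM (log axis) of the 10 members in each library, CKO in red at the left and floxed in blue at the right of each gene, with bars at the group means. By mean, Mcl1 was highest and Bcl2 lowest in both groups, and the points of the 2 groups overlap for all 10 genes.

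No member of the family was called as different between CKO and floxed hearts. In edgeR's quasi-likelihood test 0 of the 10 members had a Benjamini-Hochberg adjusted p under 0.05 over all 16591 genes tested, and 0 had an unadjusted p under 0.05. The background in edgeR was 0.0121% of genes called and 7.02% with an unadjusted p under 0.05. DESeq2 and limma-voom also called 0 members, where they called 1.47% and 0.00603% of all genes. All 10 members passed the filter on low counts, with 81 to 9483 counts in a library. The libraries of the 2 groups overlapped for 10 of 10 members, and 11.8% of all genes tested did not overlap (5.82% higher and 5.98% lower in CKO). Among only 10 genes, counts of 0 are near these background shares and do not set the family apart. The median log2 fold change, CKO minus floxed, was -0.07 for the pro-survival members (1 positive, 2 negative) and -0.05 for the pro-death members (3 positive, 4 negative), beside 0.03 for all genes tested. The 95% intervals lay within a 2-fold change in either direction for 7 members, and reached past it for Bcl2, Bid and Pmaip1, so that for those 3 the intervals include changes larger than 2-fold.

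**Figure D2:**
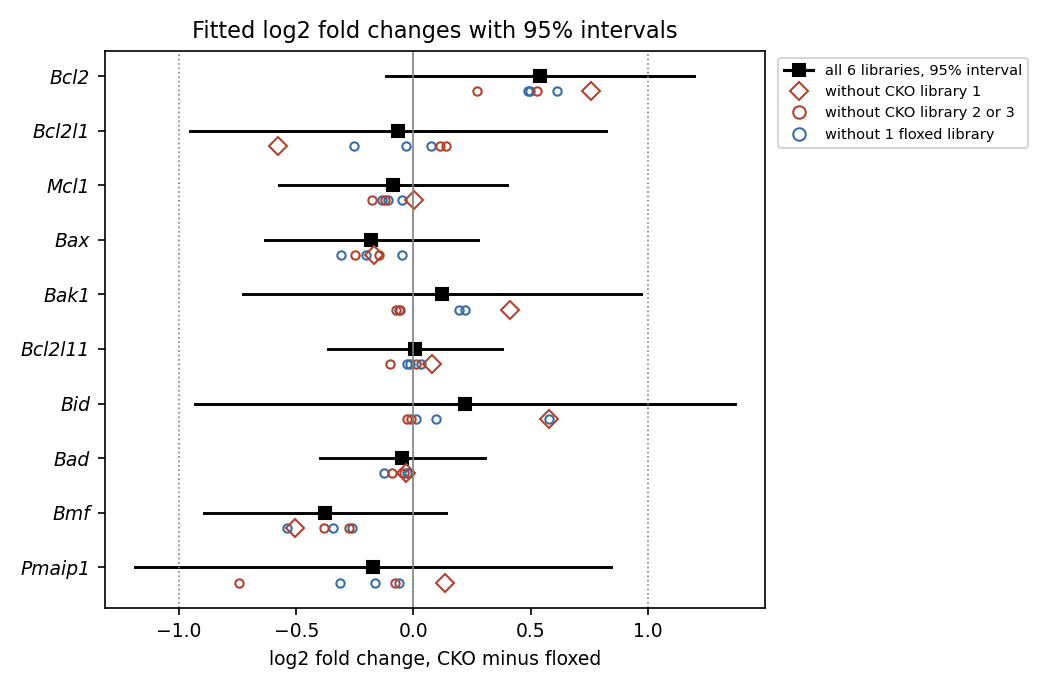
Log2 fold change (CKO minus floxed, x axis) of each member from edgeR, as black squares with 95% intervals, and below each the values with 1 library left out. All intervals cross 0, and those of Bcl2, Bid and Pmaip1 pass the dotted lines at a 2-fold change. Of the values without CKO library 1 (diamonds), that of Bcl2l1 lies farthest from the other values of its own gene.

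Among the guardians, Bcl2 (ENSMUSG00000057329, chromosome 1, 106538178 to 106714274, minus strand, GENCODE M21 on GRCm38), which anchors in mitochondrial and endoplasmic reticulum membranes, measured 13.5, 28.2 and 21.5 CPM in the CKO libraries 1, 2 and 3, against 15.9, 13.5 and 14.0 CPM in the floxed libraries. CKO libraries 2 and 3 lay above all floxed libraries and CKO library 1 lay among them. Its log2 fold change of 0.54 had a standard error of 0.28 and a 95% interval of -0.12 to 1.20 (edgeR adjusted p = 0.781). Without CKO library 1 it was 0.76 with an edgeR adjusted p of 0.0902, the smallest of any member in the 6 fits that leave out 1 library; over 16 alternative fits the adjusted p of Bcl2 ran from 0.0902 to 0.9999. Transcripts of T and NK cells, lymphocytes in which Bcl2 is also expressed, were likewise highest in CKO libraries 2 and 3, with a sum over 10 marker genes of 152, 697 and 737 CPM in the CKO libraries 1, 2 and 3, against 162, 67.8 and 110 CPM in the floxed libraries. Their part in the Bcl2 values was not tested.

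Bcl2l1 (ENSMUSG00000007659, chromosome 2, 152780668 to 152831728, minus strand) encodes Bcl-xL. It measured 269, 124 and 118 CPM in the CKO libraries, against 130.0, 212 and 192 CPM in the floxed libraries. Here CKO library 1 was the highest of all 6 and CKO libraries 2 and 3 the lowest, so that the floxed libraries lay between them. The log2 fold change of -0.07 (standard error 0.38, edgeR adjusted p = 0.989) therefore averages libraries that differed 2.28-fold among themselves. Without CKO library 1 it was -0.58, short of the threshold, and without floxed library 2, CKO library 2 or CKO library 3 it was above 0, at most 0.14.

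Mcl1 (ENSMUSG00000038612, chromosome 3, 95658788 to 95663176, plus strand), a guardian whose protein is turned over rapidly and which adult heart muscle requires, was among the steadier members. It measured 357, 441 and 473 CPM in the CKO libraries, against 439.7, 425 and 486 CPM in the floxed libraries. CKO library 1 was the lowest and the other 5 libraries lay close together. The log2 fold change was -0.09 with a 95% interval from -0.57 to 0.40 (edgeR adjusted p = 0.973).

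Bax and Bak1 encode the effectors that oligomerise into the pore. Bax (ENSMUSG00000003873, chromosome 7, 45461697 to 45466898, minus strand), a p53 target held largely in the cytosol until activated, measured 104, 118 and 103 CPM in the CKO libraries, against 145, 100.3 and 123 CPM in the floxed libraries. All 3 CKO values lay within the floxed range. The log2 fold change was -0.18, with a 95% interval from -0.63 to 0.28 and an edgeR adjusted p of 0.931. Bak1 (ENSMUSG00000057789, chromosome 17, 27019810 to 27029009, minus strand), whose product resides in the mitochondrial membrane, measured 44.0, 105 and 103 CPM in the CKO libraries, against 85.3, 56.9 and 89.7 CPM in the floxed libraries. CKO library 1 was the lowest of the 6 and CKO libraries 2 and 3 the highest. Its log2 fold change was 0.12 with a 95% interval from -0.73 to 0.97 (edgeR adjusted p = 0.976) and 0.41 without CKO library 1, short of the threshold, while without floxed library 2, CKO library 2 or CKO library 3 it was below 0. The Bak1 locus lies wholly within Ggnbp1 on the opposite strand, whose 2 annotated copies held 135 and 994 counts over the 6 libraries against 9008 for Bak1. The sources used here do not say whether strand was used in counting.

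Among the BH3-only genes, Bcl2l11 (ENSMUSG00000027381, chromosome 2, 128126038 to 128162547, plus strand) encodes Bim, which binds all guardians. It measured 35.1, 39.7 and 45.7 CPM in the CKO libraries, against 41.7, 38.4 and 39.9 CPM in the floxed libraries. The floxed values lay inside the CKO range. The fitted difference was 0.0066 on the log2 scale, with a 95% interval from -0.37 to 0.38 (edgeR adjusted p = 0.997), a value whose sign followed the scaling used. Bad (ENSMUSG00000024959, chromosome 19, 6941861 to 6951899, plus strand), which is inactivated by survival kinases such as Akt, had the narrowest range of the family, 1.18-fold from the lowest to the highest library. It measured 35.3, 39.0 and 36.7 CPM in the CKO libraries, against 40.0, 34.2 and 40.5 CPM in the floxed libraries, with a log2 fold change of -0.05 and a 95% interval from -0.40 to 0.30 (edgeR adjusted p = 0.977). Its first 620 bases overlap Gpr137 on the opposite strand. Over the 6 libraries Gpr137 held 5169 counts, against 4122 for Bad.

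Bid (ENSMUSG00000004446, chromosome 6, 120891930 to 120916853, minus strand), which caspase-8 and granzyme B cleave to its active form, and Pmaip1 (ENSMUSG00000024521, chromosome 18, 66458533 to 66465565, plus strand), the p53 target that encodes Noxa, an antagonist of Mcl1, varied most. Bid measured 6.41, 21.3 and 21.1 CPM in the CKO libraries, against 20.2, 9.78 and 12.0 CPM in the floxed libraries. CKO library 1 was lowest, and CKO libraries 2 and 3 were close to floxed library 1. The spread from the lowest to the highest library was 3.33-fold, and the log2 fold change of 0.22 had a 95% interval from -0.93 to 1.37 (edgeR adjusted p = 0.972). It was 0.58 without CKO library 1 and also 0.58 without floxed library 1, but -0.027 without CKO library 2 and -0.011 without CKO library 3. Bid shares 913 bases with Bcl2l13 on the opposite strand; Bcl2l13 measured 25.9, 30.8 and 33.3 CPM in the CKO libraries, against 33.5, 35.5 and 32.6 CPM in the floxed libraries, a much narrower range than that of Bid.

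Pmaip1 measured 5.14, 9.01 and 17.3 CPM in the CKO libraries, against 13.7, 9.54 and 12.3 CPM in the floxed libraries. The CKO libraries held both the lowest and the highest value, 3.37-fold apart, with all floxed values between. Its log2 fold change was -0.17, with a 95% interval from -1.19 to 0.84 and an edgeR adjusted p of 0.975; it was 0.14 without CKO library 1 and -0.74 without CKO library 3.

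Bmf (ENSMUSG00000040093, chromosome 2, 118528757 to 118549687, minus strand), a BH3-only protein held at the cytoskeleton until cells detach or are stressed, had the second smallest p of the family. It measured 21.1, 15.5 and 18.4 CPM in the CKO libraries, against 18.3, 25.0 and 28.1 CPM in the floxed libraries. Floxed libraries 2 and 3 were the highest of the 6, and floxed library 1 lay among the CKO libraries. Its log2 fold change of -0.38 had a standard error of 0.22 and a 95% interval of -0.89 to 0.14 (edgeR adjusted p = 0.826). It stayed negative with any 1 library left out, between -0.54 and -0.26.

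The pro-survival members were set against the pro-death members by summing the FPKM of each class in each library. The pro-survival sum was 150.1, 161 and 182 FPKM in the CKO libraries 1, 2 and 3, against 163, 165 and 185 FPKM in the floxed libraries, and the pro-death sum was 100.3, 153 and 157 FPKM in CKO, against 167, 112 and 149 FPKM in floxed libraries. Their ratio averaged 1.24 ± 0.232 in CKO and 1.23 ± 0.250 in floxed hearts (SD, n = 3 libraries each), with the highest values in CKO library 1 (1.50) and floxed library 2 (1.48). On the log2 scale the difference, CKO minus floxed, was 0.0059, against -0.14 without CKO library 1, and it lay between -0.15 and 0.18 over the 11 alternatives tried, including those without Mcl1, Bcl2l1, Bax or Bad. These sums weigh the abundant members most: Mcl1 made up 75.9% ± 10.8 of the pro-survival sum in CKO and 76.6% ± 4.40 in floxed hearts, and Bax made up 51.6% ± 7.45 of the pro-death sum in CKO and 54.5% ± 2.21 in floxed hearts. The 5 BH3-only genes together contributed 23.3% ± 1.70 in CKO and 23.1% ± 1.76 in floxed hearts (SD, n = 3 libraries each).

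Ratios between single members moved more. Bcl2 over Bax was 0.0225, 0.0411 and 0.0360 in the CKO libraries, against 0.0190, 0.0231 and 0.0197 in the floxed libraries, so CKO libraries 2 and 3 lay above the floxed range and CKO library 1 within it. The difference of the mean log2 ratios was 0.65, and 0.47 to 0.91 with 1 library left out. Mcl1 over Bcl2l1 was 1.78, 4.78 and 5.39 in the CKO libraries, against 4.54, 2.69 and 3.39 in the floxed libraries. Bcl2l1 over Bak1, a guardian over an effector that it binds, was 3.21, 0.620 and 0.598 in the CKO libraries, against 0.800, 1.96 and 1.12 in the floxed libraries. Bcl2l1 thus exceeded Bak1 in CKO library 1 and in floxed libraries 2 and 3, and Bak1 exceeded Bcl2l1 in the remaining 3. These ratios are given as a description, with no test.

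**Figure D3:**
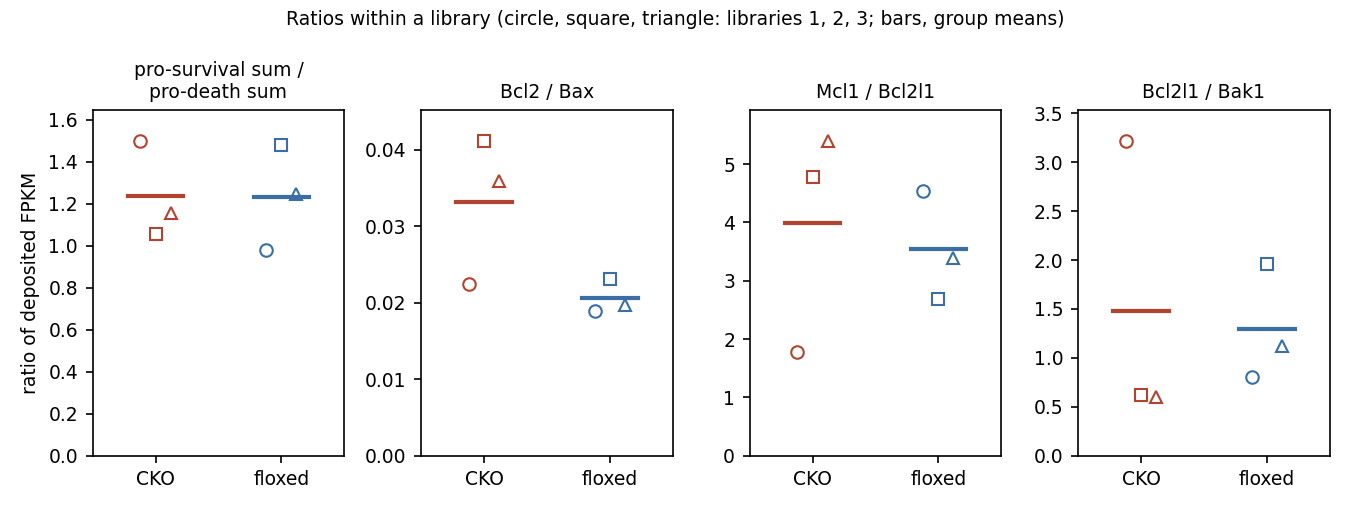
Ratios of deposited FPKM within each library (y axes from 0), CKO in red at the left and floxed in blue at the right, with bars at the group means. The class ratio averages 1.24 in CKO and 1.23 in floxed hearts, while CKO library 1 (circle) and CKO libraries 2 and 3 lie on opposite sides of the floxed mean for Mcl1 over Bcl2l1 and Bcl2l1 over Bak1.

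For Bcl2l1, Bak1, Bid and Pmaip1 the CKO libraries alone differed 2.28-fold, 2.38-fold, 3.33-fold and 3.37-fold, and parts of this pattern were shared by several members. CKO library 1 was the lowest of the 6 libraries for 5 members (Mcl1, Bak1, Bcl2l11, Bid and Pmaip1) and the highest for 1 (Bcl2l1). Bid and Bak1 both ran highest in CKO libraries 2 and 3 and lowest in floxed library 2 and CKO library 1, and Bcl2l1 ran highest in CKO library 1 and floxed library 2 and lowest in CKO libraries 2 and 3. The SD of log2 CPM was larger among the CKO than among the floxed libraries for 7 of 10 members. The matching shares over all genes were not computed. These counts therefore do not show whether the pattern is particular to the family or common to the libraries.

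**Figure D4:**
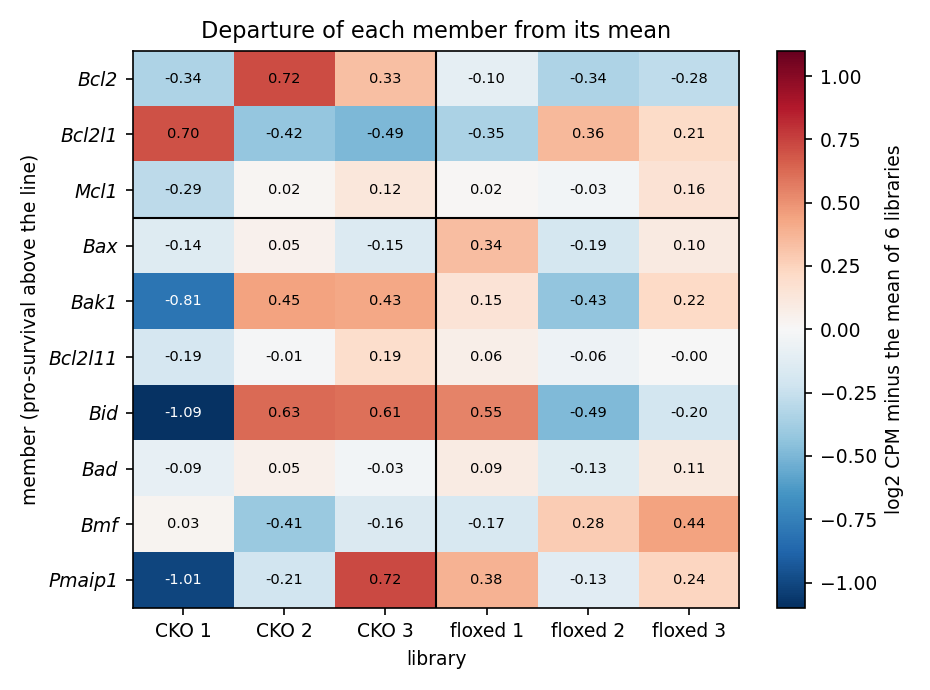
Log2 CPM of each member (rows) minus its mean over the 6 libraries, for CKO libraries at the left and floxed libraries at the right. CKO library 1 has the lowest values of Bid (-1.09), Pmaip1 (-1.01) and Bak1 (-0.81) and the highest of Bcl2l1 (0.70).

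Levels of other cell types differed between the same libraries. The summed markers of macrophages and monocytes (7 genes) were 1432, 4056 and 4068 CPM in the CKO libraries 1, 2 and 3, against 4636, 2315 and 4368 CPM in the floxed libraries, lowest in the same pair of libraries as Bid and Bak1. Endothelial markers (5 genes) summed to 3642, 1804 and 712 CPM in the CKO libraries, against 1483, 1787 and 1509 CPM in the floxed libraries, and dividing-cell markers (4 genes) to 28.6, 204 and 213 CPM in CKO, against 46.6, 23.6 and 41.8 CPM in floxed libraries. Erythroid transcripts (3 genes) summed to 46.6, 314 and 366 CPM in the CKO libraries, against 5.19, 10.9 and 14.1 CPM in the floxed libraries, without overlap. Atrial muscle transcripts (4 genes) summed to 536, 261 and 604 CPM in CKO, against 1567, 1209 and 1323 CPM in floxed libraries. This sum was mostly Nppa, the only 1 of the 4 with a negative log2 fold change (-1.79). Myl7, Sln and Myl4 went the other way (5.79, 4.66 and 2.31), with CKO library 1 highest for each. CKO library 3 was the lowest of the 6 libraries for each, at 0.0998, 0 and 4.79 CPM, below all floxed libraries. No marker of these lists was at 0 in all libraries. The part of these cell types in the members' values was not tested. Without CKO library 1, 5 of 10 members did not overlap between the groups, with Bcl2, Bak1 and Bid higher and Bcl2l1 and, by a narrow margin after rescaling, Bmf lower in the CKO libraries, where 37.8% of all genes did not overlap. Of the 10, 2 (Bcl2 and Bcl2l1) then had an unadjusted p under 0.05 in edgeR, beside 19% of all genes, and 0 an adjusted p under 0.05, beside 2.92%.

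Of the 15 other family genes listed, 13 could be tested, and 0 passed over all genes in edgeR. At an unadjusted p under 0.05, 3 had a positive and 1 a negative log2 fold change, beside 4.37% and 2.65% of all genes. The negative one was Bbc3, the gene of the BH3-only protein Puma and a p53 target like Bax and Pmaip1, with 29.9, 29.7 and 30.5 CPM in the CKO libraries, against 42.0, 38.7 and 46.7 CPM in the floxed libraries (log2 fold change -0.50, edgeR adjusted p = 0.578). Its groups did not overlap, as for 5.98% of all genes in that direction. The positive ones included Bcl2l14, with 0.825, 4.03 and 5.94 CPM in CKO, against 0.935, 0.660 and 1.03 CPM in floxed libraries, and Bcl2a1a, which encodes the guardian A1 of blood cells, with 3.81, 14.6 and 16.0 CPM in CKO, against 6.03, 2.70 and 3.59 CPM in floxed libraries. Bcl2a1a has near-identical copies among which reads may be split, so its level is uncertain. Of the listed copies, Bcl2a1b had a log2 fold change of 0.29 (edgeR adjusted p = 0.950) and Bcl2a1d 1.50 (0.678). Without CKO library 1 these were 0.63 (edgeR adjusted p = 0.295) and 1.89 (0.0546), so neither passed. Bcl2l14 and Bcl2a1a followed the order of the T and NK cell sum in that CKO libraries 2 and 3 were highest. The part of those cells was not tested. Without CKO library 1, Bcl2l14 (log2 fold change 2.48, edgeR adjusted p = 0.0226) and Bcl2a1a (1.87, edgeR adjusted p = 0.0327) passed over all genes, 2 of 13, beside 2.41% of all genes higher in CKO.

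Downstream of the family, 0 of the 19 genes listed from the mitochondrial death pathway passed over all genes in edgeR, and at an unadjusted p under 0.05 there were 3 with positive and 0 with negative log2 fold changes, beside 4.37% and 2.65% of all genes. Xiap, which binds caspases directly, measured 60.7, 69.2 and 61.3 CPM in the CKO libraries, against 44.5, 49.0 and 42.5 CPM in the floxed libraries (log2 fold change 0.49, edgeR adjusted p = 0.578), and was higher in 3 of 3 CKO libraries than in any floxed library, as were 5.82% of all genes. Birc2 measured 95.3, 61.6 and 62.3 CPM in CKO, against 47.4, 54.2 and 51.8 CPM in floxed libraries (edgeR adjusted p = 0.697). Birc5, which is also a gene of dividing cells, measured 7.68, 36.5 and 32.9 CPM in CKO, against 9.04, 4.38 and 10.7 CPM in floxed libraries, highest in CKO libraries 2 and 3 as were the dividing-cell markers, whose part was not tested. Without CKO library 1, Birc5 passed in edgeR (log2 fold change 2.09, adjusted p = 0.0252), the only 1 of the 19 to do so, and Birc2 had a log2 fold change of 0.26, against 0.52 with all libraries.

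On the death receptor route that leads to Bid cleavage, 0 of 10 genes passed over all genes in edgeR, and 3 had positive log2 fold changes at an unadjusted p under 0.05, beside 4.37% of all genes. Gzmb, the granzyme that cleaves Bid in cells attacked by lymphocytes, measured 13.8, 117 and 91.1 CPM in CKO, against 20.9, 9.30 and 15.6 CPM in floxed libraries (edgeR adjusted p = 0.607). Fasl, the ligand of Fas, measured 2.22, 10.5 and 10.8 CPM in CKO, against 2.91, 1.68 and 3.15 CPM in floxed libraries, and Tnfsf10, which encodes TRAIL, measured 37.9, 113 and 53.4 CPM in CKO, against 37.3, 30.8 and 26.3 CPM in floxed libraries. CKO libraries 2 and 3 were highest for all 3 genes, as for the T and NK cell sum (152, 697 and 737 CPM in CKO, against 162, 67.8 and 110 CPM in floxed libraries), and the part of those cells, which themselves express Gzmb and Fasl, was not tested. Gzmb (log2 fold change 2.75, edgeR adjusted p = 0.0125) and Fasl (2.02, edgeR adjusted p = 0.0238) passed over all genes when CKO library 1 was left out, beside 2.41% of all genes higher in CKO.

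Of 18 listed regulators of the members, 17 could be tested, and 0 passed over all genes in edgeR or had an unadjusted p under 0.05. The smallest p belonged to Ddit3, the stress factor CHOP, which is known to repress Bcl2 and induce Bcl2l11, with 103, 109 and 60.6 CPM in CKO, against 112, 124 and 149.9 CPM in floxed libraries (log2 fold change -0.50, edgeR adjusted p = 0.785). Cdkn1a, the p53 target that encodes p21, measured 494, 197 and 266 CPM in CKO, against 458, 512 and 535 CPM in floxed libraries (edgeR adjusted p = 0.796), with CKO library 1 among the floxed libraries. When that library was left out it passed, with a log2 fold change of -1.13 (edgeR adjusted p = 0.0490), beside 0.514% of all genes lower in CKO. Fbxw7, a ubiquitin ligase subunit that marks Mcl1 for degradation, measured 35.9, 29.8 and 25.8 CPM in CKO, against 41.5, 36.2 and 35.5 CPM in floxed libraries (edgeR adjusted p = 0.824).

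The genes whose profile was nearest to that of Bcl2, the member with the smallest p, were Psmc3ip, Rmdn3 and Rcc2, by root mean square differences of 0.06, 0.06 and 0.07 in centred log2 CPM over the 6 libraries. Rcc2 measured 94.9, 191 and 153 CPM in CKO, against 125, 91.8 and 99.8 CPM in floxed libraries. With 6 libraries and 16591 genes such a likeness is a description of these libraries only.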

How the data were processed

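Stranded mRNA libraries were made from heart RNA, per the labels' protocols. Tools in the submitters' processing notes, given with no role, are DESeq2 1.22.1, featureCounts 1.6.2, GATK 4.0.11.0, Cufflinks, StringTie 1.3.4d, fastp 0.19.3 and HISAT2 2.1.0, with the build mm10. Raw whole-number counts and FPKM values were deposited per gene. The sources used here do not say how reads of overlapping genes or of the other strand were handled. The table's own gene positions were not used: positions come from GENCODE M21 (GRCm38), matched by Ensembl identifier.

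The counts were fitted with edgeR 4.0.16 (R 4.3.3), using filterByExpr at a minimum count of 10 (16591 genes, 99.8% of counts), TMM scaling, robust quasi-likelihood F test, genotype as the single term, Benjamini-Hochberg adjustment over all genes and a threshold of 0.05. Standard errors come from the F statistic. CPM uses TMM-scaled library sizes, and log2 CPM has a prior count of 2. Levels of different genes were compared, and ratios taken, on FPKM. The precision of these counts is set by the spread between 3 libraries a group (biological coefficient of variation 33.3%). The fits were tested on simulated counts. Alternatives used limma 3.58.1, DESeq2 1.42.0, other filters and scalings, a replicate block and each library left out. Figures were drawn with matplotlib 3.10.9.

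The members, the lists of other genes and the markers were chosen with earlier results of these data known. All members were named; of each other list the members past the threshold, or else at most 3 with the smallest p, were named, and the 3 genes nearest in profile to the member with the smallest p.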

Additional observations from a re-analysis of the deposited data

How the results depend on the processing

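No member passed in any of 16 alternative fits, and Bcl2, Bax, Bad and Bmf kept their direction in all of them. The number of genes called over the whole table was 2, against 10 without a filter on low counts, 243 in DESeq2 (123 higher, 120 lower), 1 in limma-voom and 0 with the replicate block, and 0 to 500 with 1 library left out, 500 without CKO library 1. The cause was not tested. The number of members called was 0 in each. Same-numbered libraries did not deviate together from their group means (r = -0.57, -0.31 and 0.04 across genes for replicates 1, 2 and 3). Whether the shared numbers pair the samples was not tested. Under the replicate block no member passed and Bcl2l11 had a log2 fold change of -0.00091. Bcl2l11, at 0.0066, also turned negative with RLE normalisation (-0.0033), without a filter (-0.0072), in DESeq2 (-0.0029), in limma-voom (-0.00021) and with library sizes that leave out mitochondrially encoded genes and Gsdmd (-0.010). With 1 library left out, log2 fold changes ranged from -0.072 to 0.41 for Bak1, -0.58 to 0.14 for Bcl2l1, -0.099 to 0.077 for Bcl2l11, -0.027 to 0.58 for Bid, -0.18 to 0.0037 for Mcl1 and -0.74 to 0.14 for Pmaip1. The pro-survival median then ranged from -0.11 to 0.14 and the pro-death median from -0.13 to 0.077. Each member had at least 81 counts in every library, and the spread between libraries sets the width of the intervals.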

Other observations

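A pair of other genes from the listed pathways is given here, chosen after their values were seen. Fas, the death receptor upstream of Bid, measured 91.9, 32.3 and 30.8 CPM in the CKO libraries 1, 2 and 3, against 41.3, 57.5 and 53.2 CPM in the floxed libraries, which is the order of Bcl2l1 in all 6 libraries. Bnip3, a hypoxia-induced family relative that serves in mitophagy, measured 204, 41.4 and 87.4 CPM in CKO, against 67.5, 243 and 121 CPM in floxed libraries, a 5.86-fold range. Neither passed the threshold in edgeR (adjusted p = 0.996 for Fas and 0.958 for Bnip3), nor without CKO library 1 (adjusted p = 0.103 for Fas and 0.306 for Bnip3).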
